A study of Homo sapiens with 30 samples.

Results

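MYEOV and DDX60L are 2 of the genes that the study picked as candidate oncogenes of pancreatic ductal adenocarcinoma (PDAC), and here the transcriptomes left by depleting them were set against each other directly in MiaPaCa2, an established human PDAC cell line. The comparison used 6 of the 30 RNA-seq libraries of the series, namely the 3 MiaPaCa2 libraries transfected with an siRNA against MYEOV (siMYEOV) and the 3 transfected with an siRNA against DDX60L (siDDX60L). The members were chosen by group label and cell line alone. The series holds 15 MiaPaCa2 libraries and 15 libraries of PANC-1, another established PDAC line, with 3 libraries in each of the groups siControl, siMYEOV, siDDX60L, siKCNN4 and siS100A16. No other treatment is given in the labels for any group. Per the labels RNA was extracted with Trizol and made into libraries with an Illumina TruSeq RNA kit, whereas the study's methods name an RNeasy kit and a strand-specific library kit. The labels do not say whether the 3 libraries of a group came from separate cultures, so a p value here reflects only how far these libraries spread. Each target was depleted with a single siRNA sequence, so the loss of the target and any other effect of that sequence cannot be told apart. Because neither group is untreated, a difference says which siRNA group was higher, and the siControl libraries are given beside it to show which group lies away from the control level.

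MYEOV, first found overexpressed in multiple myeloma, lies near CCND1 in the 11q13 region that is often amplified in tumours. DDX60L is a DExD/H-box helicase related to DDX60 and is known as an interferon-inducible gene. An siRNA is a short duplex whose guide strand directs the Argonaute protein to a messenger RNA that it matches, which is then cut. The guide can also act like a microRNA, because pairing through its seed, the bases from 2 to 8 of the guide, is enough to lower many other RNAs a little. The seed is therefore part of what each group received. The study's text names the third MYEOV sequence and the second DDX60L sequence as those used after a first test, and the labels do not name the sequence.

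The sense strands of both siRNAs are shown 5′ to 3′ as DNA letters, since the results below return to them. Capitals mark the stretch that pairs with the guide's seed, and hence the letters that a seed match in another RNA would hold.
siMYEOV: ggaggacacgcAAGTTCAg
siDDX60L: gagcttgttctCGAGTCAt
The siMYEOV sequence matched chr11:69064185-69064203 on the plus strand of GRCh37, in the 3′ UTR of MYEOV in exon 2 of a transcript with 2 exons. The siDDX60L sequence matched chr4:169374318-169374336 on the minus strand, in coding sequence of DDX60L in exon 8 of a transcript with 38 exons.

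The targets were examined first. MYEOV (ENSG00000172927, chr11:69061605-69182494, plus strand, GRCh37) was barely expressed in this line, at 0.691, 0.985 and 0.734 FPKM in siControl, 0.190, 0.169 and 0.155 FPKM after siMYEOV and 0.714, 0.408 and 0.711 FPKM after siDDX60L. FPKM corrects the fragments of a gene for its length and for the size of the library, so it is a level relative to all transcripts of that library. All 3 siMYEOV libraries lay below the other 6. The mean of MYEOV over the 15 MiaPaCa2 libraries, 0.540 FPKM, was under the filter of 1 FPKM, and without that filter it was 0.45 ± 0.084 lower after siMYEOV on the log2(FPKM + 1) scale (± SE, adjusted p = 0.010, limma). In PANC-1 MYEOV was far higher, at 9.14, 10.7 and 9.99 FPKM after siMYEOV and 15.6, 15.2 and 13.5 FPKM after siDDX60L. MiaPaCa2 therefore had little MYEOV transcript to lose. DDX60L (ENSG00000181381, chr4:169277886-169458937, minus strand) stood at 0.187, 0.233 and 0.226 FPKM after siDDX60L, 1.98, 2.93 and 3.03 after siMYEOV and 1.91, 1.70 and 2.24 in siControl. The siDDX60L libraries lay below all others, and the direct log2 difference, siMYEOV minus siDDX60L, was 1.57 ± 0.13 (adjusted p = 0.00020). KCNN4 and S100A16, the targets of the other siRNAs, did not pass the test, with differences of 0.12 and 0.06.

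The 6 libraries were alike in their global measures. FPKM values summed to between 406320 and 416201 after siMYEOV and between 408721 and 414254 after siDDX60L, with 11707 to 11745 and 11682 to 11720 entries above 1 FPKM. Replicates correlated across genes at r of 0.9853 to 0.9871 and 0.9874 to 0.9885, where genes are not independent replicates. Read totals are not part of the values, and depth relative to the first siControl library was estimated at 0.636 to 0.662 for siMYEOV and 0.654 to 0.898 for siDDX60L. The epithelial keratins KRT8, KRT18 and KRT19 and the ductal factor SOX9 were expressed, whereas EPCAM and CDH1 were at or near 0 in this line. All 10 acinar and islet markers had group means below 0.1 FPKM. Of 12 leukocyte markers PTPRC, CD3E and CD3D were at 0, and the sum, from 13.9 to 16.6 FPKM after siMYEOV and from 10.4 to 12.1 after siDDX60L, came mostly from CD68, at 12.2, 14.4 and 12.5 against 10.3, 8.08 and 9.61 FPKM, which was not called. The 11 fibroblast markers summed to between 53.7 and 55.7 FPKM after siMYEOV and between 53.05 and 55.8 after siDDX60L, with DCN, FAP and POSTN at 0, but COL1A2 made up most of that sum, and the collagen COL3A1 was called higher (0.64 ± 0.057, 11.1 to 12.2 against 6.83 to 7.28 FPKM). The 8 endothelial markers summed to between 5.12 and 6.13 FPKM against 4.18 to 4.72, with PECAM1 at 0 and CDH5 called higher (0.64 ± 0.13, 1.55 to 2.08 against 0.653 to 1.16 FPKM). What part these markers have in the results was not tested. VIM, the intermediate filament gene vimentin, varied within groups, with 1299, 2706 and 2877 FPKM after siMYEOV and 3661, 1774 and 3681 after siDDX60L, and is named here for that spread, seen in the data. It was not called.

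Of 11875 genes tested, 2646 (22.3%) differed between the depletions at an adjusted p below 0.05 and a log2 difference of at least 0.5, the rule for every call below. After siMYEOV 1488 genes (12.5%) were higher and 1158 (9.75%) lower, 222 and 239 of them by 1 log2 unit or more. Under scaling by the median of ratios 1202 were higher and 1361 lower, so which direction held more calls depended on the scaling. All 3 libraries of a group lay beyond all 3 of the other for 1485 of the higher and 1154 of the lower calls, against 62% of all genes tested. The median difference of all genes was 0.05 and the median SE was 0.080. An exact permutation test of 3 against 3 libraries cannot give a p below 0.1, so calls rest on the spread that limma pools across genes.

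**Figure D1:**
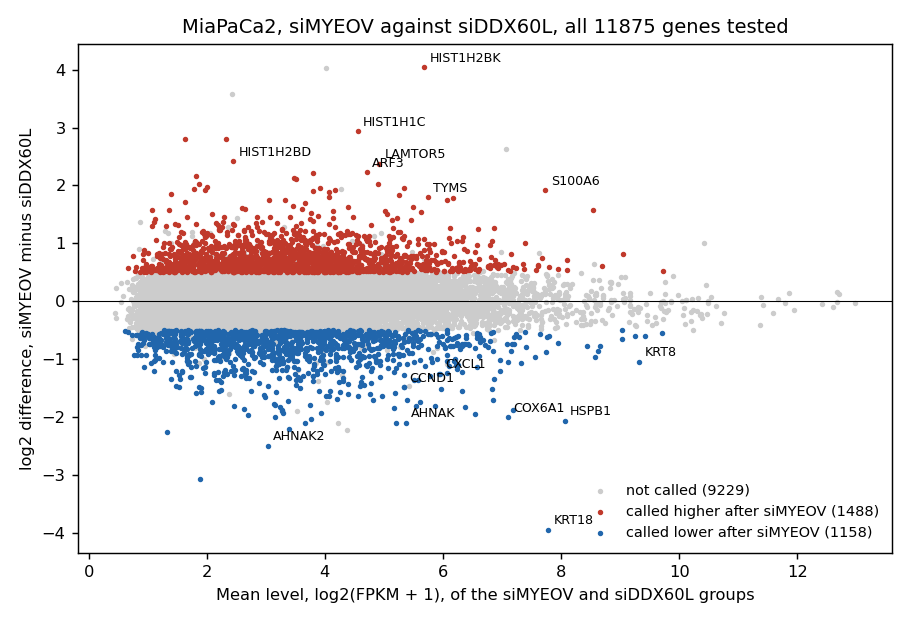
Each point is a gene of MiaPaCa2, with its mean log2(FPKM + 1) over the siMYEOV and siDDX60L groups on the x axis and the log2 difference, siMYEOV minus siDDX60L, on the y axis. The 1488 genes called higher (red) and 1158 called lower (blue) span the range of levels, with HIST1H2BK at 4.04 and KRT18 at −3.95 at the ends.

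The largest fall after siMYEOV among genes with an identifier was in KRT18, which encodes keratin 18, a type I intermediate filament protein of simple epithelia (ENSG00000111057, chr12:53342655-53346690, plus strand). It stood at 52.1, 57.1 and 55.8 FPKM after siMYEOV, against 889, 855 and 841 after siDDX60L and 877, 887 and 893 in siControl. The siDDX60L and siControl libraries overlapped, and the siMYEOV mean was 15.7-fold lower than that of siDDX60L, with a log2 difference of −3.95 ± 0.047 (adjusted p = 9.2e-07). KRT8, the type II partner with which keratin 18 forms filaments, was lower by less, at 431, 415 and 492 FPKM against 936, 931 and 888 (−1.04 ± 0.069, adjusted p = 9.3e-05). The KRT8 and KRT18 gene models overlap on opposite strands at chr12, and with the strand handling of the counting not given, reads of that overlap cannot be told apart. In bulk RNA, fewer cells with a transcript and less transcript per cell cannot be told apart either. Of 15 tested keratin and junction genes 3 were higher and 4 lower, beside 12.5% and 9.75% of all genes, with a list median of −0.24. F11R, the junctional adhesion molecule A, was higher (1.11 ± 0.066) while occludin (OCLN) was lower (−0.73 ± 0.13).

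Giant scaffold and stress proteins were also among the largest falls. AHNAK2 and AHNAK, very large scaffold proteins built of repeated segments, differed by −2.49 ± 0.075 and −2.10 ± 0.082. AHNAK2 read 2.33, 2.52 and 2.46 FPKM after siMYEOV and 16.6, 19.2 and 19.4 after siDDX60L. AHNAK read 17.4, 20.1 and 19.6 FPKM against 77.4, 91.8 and 85.2, with siControl higher still at 111, 134 and 141. Groups did not overlap in either gene. HSPB1, the small heat shock protein HSP27, read 131, 125 and 133 FPKM after siMYEOV and 554, 542 and 542 after siDDX60L (−2.07 ± 0.037, adjusted p = 4.3e-06). Others past −1.9 were GLO1, the glyoxalase that clears methylglyoxal (−1.96), MTPN, the capping-protein regulator myotrophin (−2.10), COX6A1, a subunit of cytochrome c oxidase (−2.01), AP3S1, a subunit of the AP-3 adaptor (−1.94), the adenylate kinase AK5 (−2.004), SCRN1 (−2.10) and ZCRB1, a protein of the minor spliceosome (−2.03). RAB31, a small GTPase of vesicle traffic, had a wider spread, with 5.24, 5.27 and 1.60 FPKM against 20.9, 21.5 and 19.6 (−2.21 ± 0.34, adjusted p = 0.0024).

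**Figure D2:**
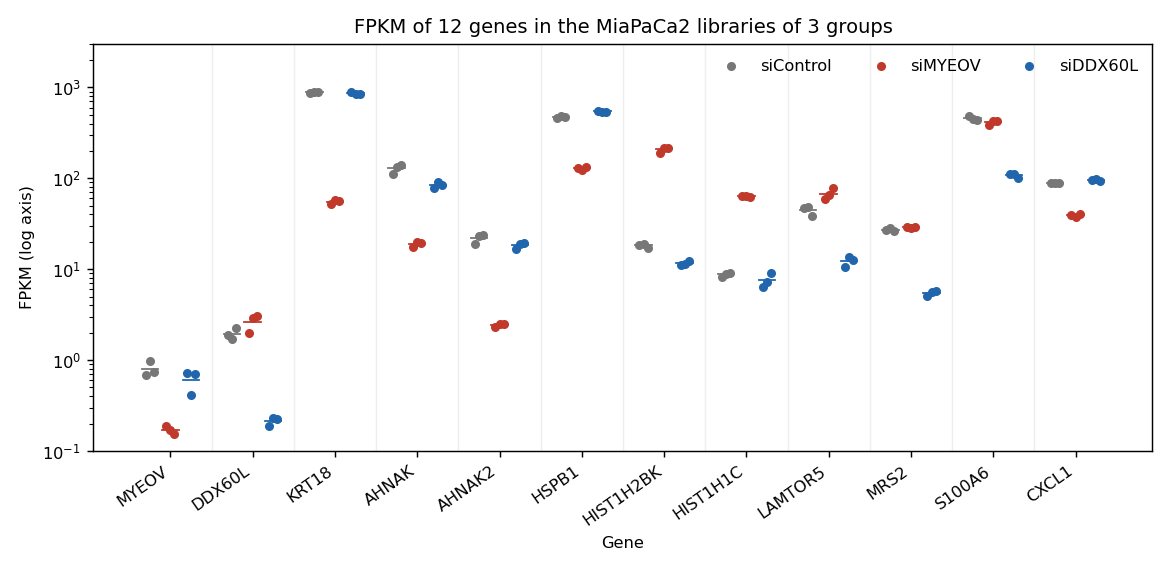
FPKM on a log axis for 12 genes in the 3 siControl, 3 siMYEOV and 3 siDDX60L libraries of MiaPaCa2, where points are libraries and bars are group means. KRT18 (52.1 to 57.1 FPKM) and HSPB1 (125 to 133 FPKM) are low in the siMYEOV libraries, MRS2 (5.01 to 5.77 FPKM) and S100A6 (101 to 112 FPKM) in the siDDX60L libraries, and HIST1H2BK (192 to 217 FPKM) stands high after siMYEOV.

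The largest rise was in replication-dependent histone genes. These genes encode the core and linker histones that package new DNA and are transcribed in S phase from clusters on chromosomes 6 and 1. Their messages mostly end in a stem loop in place of a poly(A) tail. The study's methods name an mRNA library kit. If it kept only RNA with a poly(A) tail, these values cover the polyadenylated histone messages and not the total. HIST1H2BK, an H2B gene (ENSG00000197903, chr6:27114140-27114634, minus strand), read 192, 216 and 217 FPKM after siMYEOV, against 11.2, 11.5 and 12.3 after siDDX60L and 18.5, 19.2 and 17.2 in siControl. In the siKCNN4 and siS100A16 libraries of MiaPaCa2 it read 12.6 to 13.8 and 13.3 to 17.6 FPKM. The siMYEOV libraries therefore stood apart from the 12 other libraries of the line, and the direct difference was 4.04 ± 0.064 (adjusted p = 3.0e-06). HIST1H1C, the linker histone H1.2, read 64.5, 63.7 and 63.0 FPKM against 6.32, 7.24 and 9.01 (2.94 ± 0.11). HIST1H2BD read 10.8, 12.7 and 11.3 FPKM against 1.23, 1.33 and 1.501 (2.42 ± 0.084). HIST1H2BJ read 5.98, 5.66 and 7.75 FPKM against 0.633, 0.689 and 0.651 (2.16 ± 0.11). Its means were 0.488 FPKM in siControl, 1.02 in siKCNN4 and 0.933 in siS100A16, so it passed the filter through the siMYEOV group. HIST1H2AC was more variable, with 9.06, 8.63 and 19.96 FPKM against 1.40, 0.396 and 0.812 (2.80 ± 0.35, adjusted p = 0.00099), yet its groups did not overlap.

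Of the 33 replication-dependent histone genes listed, 18 passed the filter, and 15 of these were called higher and 0 lower by limma, with a median of 1.92 beside 0.05 for all genes, and 0 were lower at an unadjusted p below 0.05 either. Of all genes 12.5% were higher and 9.75% lower. Several of the 18, HIST1H2BJ among them, passed the filter through the siMYEOV group, where they were high. The count and the median therefore rest partly on that selection. The exceptions were HIST1H3B (−0.36), HIST1H3D (0.01) and HIST2H2AC (−0.22). HIST1H3D read 2.29, 2.22 and 0.184 FPKM after siMYEOV, so a single library stood far from its group. The table held 9 further tested genes of the same clusters that the list did not contain, and 6 of them were higher and 0 lower, including HIST1H4I (1.86) and HIST1H3C (1.36), whereas HIST1H1B (−0.38), HIST1H4J (−0.80) and HIST1H4K (0.30) were not called. These 9 were added after their values were seen. HIST2H2AA3 and HIST2H2AA4 are near-identical copies, both at 2.12, and reads shared between histone copies may be split between them. Against siControl, 15 of the 18 were higher after siMYEOV, and 1 higher and 1 lower after siDDX60L. Of 10 histone genes transcribed outside S phase 1 was higher, H3F3B, which encodes histone H3.3 (0.63 ± 0.042), and 1 lower, H2AFZ, which encodes the variant H2A.Z (−1.07 ± 0.073).

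H2B promoters are known for an octamer that binds the factor OCT1, and the letters ATTTGCAT or ATGCAAAT were therefore searched on both strands in RefSeq promoters, from 250 bases before to 50 after each gene's start on GRCh38.p14. They occurred in 4 of 6 tested H2B genes, in 3 of 12 other tested replication-dependent histone genes and in 492 of 27305 promoters (1.8%). The window of HIST1H2BK, the gene with the largest rise, is shown with that of HIST1H2BJ, and capitals mark the octamer.
HIST1H2BK: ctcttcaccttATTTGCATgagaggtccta
HIST1H2BJ: ctcttcaccttATTTGCATaagcgattcta
They lie at chr6:27146886-27146915 and chr6:27132824-27132853, both on the minus strand of GRCh38.p14. The octamer did not follow the size of the difference. HIST1H2BD, with a difference of 2.42, held none, and HIST2H2BE and HIST2H2AC share a single octamer between their divergent starts while differing by 1.58 and −0.22. All 18 tested genes were matched to a promoter.

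Of 42 tested genes of the G1/S transition and of DNA replication 18 were lower after siMYEOV and 3 higher. Of all genes 9.75% were lower and 12.5% higher. The list median was −0.38 beside 0.05 for all genes. Against siControl 10 were lower and 0 higher after siMYEOV (median −0.12), and 4 lower and 7 higher after siDDX60L (median 0.19), so both groups lay away from the control, on opposite sides by median. Cyclin D1 (CCND1), which with CDK4 or CDK6 drives passage out of G1, read 22.3, 24.7 and 22.9 FPKM after siMYEOV and 67.9, 66.7 and 66.6 after siDDX60L, with siControl at 87.8, 93.2 and 94.8 (−1.49 ± 0.048, adjusted p = 1.3e-05). The kinase CDK6 read 2.30, 2.27 and 2.26 FPKM against 6.82, 6.89 and 6.74 (−1.25 ± 0.054). In neither gene did the groups overlap. MCM2 and MCM7, subunits of the replicative helicase, differed by −1.03 ± 0.051 and −1.01 ± 0.033, and RFC3, a subunit of the clamp loader, by −1.05 ± 0.10.

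The 3 higher genes, TYMS, MCM6 and E2F3, lay near the control level after siMYEOV and below it after siDDX60L. TYMS, thymidylate synthase, read 92.1, 104 and 101 FPKM after siMYEOV, 28.3, 26.7 and 28.0 after siDDX60L and 101, 112 and 99.5 in siControl (1.80 ± 0.056). MCM6, another helicase subunit, differed by 0.64 ± 0.042. E2F3, an E2F transcription factor, differed by 0.51 ± 0.052, a call lost without siDDX60L replicate 3 (0.49) or without siMYEOV replicate 3 (0.48). The siMYEOV and siControl libraries of TYMS overlapped and the siDDX60L libraries lay below both. Mitotic genes showed little of this in MiaPaCa2, where 12.5% of all genes were higher and 9.75% lower. Of 34 tested 1 was higher, BIRC5, which encodes survivin (1.08 ± 0.21, with 60.9, 39.2 and 71.3 FPKM against 25.5, 28.0 and 23.5), and 1 lower, CDC20, an activator of the anaphase-promoting complex (−0.61 ± 0.035).

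In the EGF receptor family 2 ligands, 2 adaptors and an inhibitor were higher after siMYEOV than after siDDX60L. Of 12 tested genes these 5 were higher, beside 12.5% of all genes, and 0 lower by limma (median 0.44), with 1 lower at an unadjusted p below 0.05. The ligands called were AREG and EREG, whereas HBEGF (−0.09) and BTC (0.24) were not. AREG read 45.4, 50.7 and 49.5 FPKM against 28.9, 26.3 and 26.1 (0.82 ± 0.062, adjusted p = 0.00016), with siControl between at 31.1 to 32.2. The adaptors SHC1 and GRB2, which couple the receptor to RAS, differed by 1.04 ± 0.049 and 0.76 ± 0.046, and the feedback inhibitor ERRFI1 by 0.59 ± 0.035. SHC1 read 114 FPKM in each siMYEOV library, 51.6 to 57.4 after siDDX60L and 133 to 143 in siControl, so its lower group was siDDX60L. The receptors EGFR (−0.21), ERBB2 (0.47) and ERBB3 (0.08) were not called. Against siControl 2 members were higher and 3 lower after siMYEOV (median −0.27), and 0 higher and 5 lower after siDDX60L (−0.51). EREG, whose difference of 0.50 sits at the threshold, had means of 48.8 FPKM after siMYEOV, 34.2 after siDDX60L and 68.6 in siControl. ERRFI1 had 271, 180 and 321 in the same order. GRB2 varied in siControl, from 28.4 to 60.5 FPKM. Among ERK output genes 5 were higher and 4 lower of 25, beside 12.5% and 9.75% of all genes. The ERK inhibitor SPRY2 was higher (0.66 ± 0.033), and the phosphatase DUSP7 (−0.98 ± 0.046) and the AP-1 subunit FOSL1 (−0.79 ± 0.041) were lower.

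Interferon-stimulated genes were split by the control level. Of 30 tested 10 were higher after siMYEOV than after siDDX60L and 1 lower (median 0.27), beside 12.5% and 9.75% of all genes. IFITM1, which restricts virus entry, read 63.4, 68.4 and 68.4 FPKM against 16.9, 35.9 and 9.37, with siControl at 50.2, 45.4 and 54.8 (1.83 ± 0.43, adjusted p = 0.012). OASL, an antiviral protein of the oligoadenylate synthetase family, read 3.47, 3.25 and 3.45 FPKM against 1.07, 1.13 and 1.28 (1.03 ± 0.070). IFITM1 was low in the siDDX60L group, with a wide spread there, whereas OASL was high in the siMYEOV group, with siControl at 1.21 to 2.16. STAT2, a subunit of the interferon-activated transcription factor ISGF3, differed by 0.78 ± 0.067, and UBE2L6, which conjugates ISG15, by 1.04 ± 0.10. TRIM25, a ubiquitin ligase that acts on the RNA sensor RIG-I, was the only lower member (−1.30 ± 0.065). Against siControl 4 members were higher and 5 lower after siMYEOV, and 1 higher and 8 lower after siDDX60L. Of the genes of MHC class I and antigen processing, 1 of 20 was higher, the loading factor TAPBP (0.67 ± 0.078), and 3 were lower, including HLA-B (−0.78 ± 0.048) and the immunoproteasome subunit PSMB8 (−0.75 ± 0.10).

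Inflammatory chemokines separated the siRNAs by gene. CXCL1, which attracts neutrophils, read 39.2, 38.0 and 40.4 FPKM after siMYEOV, 94.5, 97.2 and 92.5 after siDDX60L and 88.3 to 89.0 in siControl (−1.25 ± 0.041, adjusted p = 1.3e-05). CXCL3 was also lower after siMYEOV (−0.72 ± 0.13). CXCL2 (−0.34 ± 0.054) and CXCL8 (0.21 ± 0.051) did not reach a log2 difference of 0.5 and were not called. CXCL2 read 5.69 to 6.17 FPKM after siMYEOV, 7.72 to 7.79 after siDDX60L and 12.7 to 13.9 in siControl. It was called lower than siControl after siMYEOV (−1.06) and after siDDX60L (−0.72). CXCL8 read 34.8 to 35.4 FPKM after siMYEOV, 29.1 to 32.2 after siDDX60L and 63.8 to 66.1 in siControl, so both siRNA groups lay below the control and close to each other. Of 23 tested TNF and NF-kB response genes 2 were higher and 6 lower (median −0.18), beside 12.5% and 9.75% of all genes. The lower ones included TNFAIP2 (−0.96 ± 0.059). NFKB1, which encodes the NF-kB subunit p50, was higher (0.73 ± 0.053). The study's text names these pathways from the same libraries, so the list is not independent of them. Against siControl 16 members were lower after siMYEOV and 15 after siDDX60L, and 0 were higher after either.

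Of 21 tested genes of the urokinase system, integrins and matrix 6 were lower after siMYEOV, beside 9.75% of all genes, and 0 higher by limma, with 2 higher at an unadjusted p below 0.05. The other 15 were not called. The list median of −0.27 was −0.12 without siMYEOV replicate 2. PLAUR, the urokinase receptor, read 15.8, 17.0 and 17.2 FPKM after siMYEOV, 37.4, 36.0 and 36.7 after siDDX60L and 65.9 to 69.9 in siControl (−1.10 ± 0.048). PLAU, urokinase itself, read 28.8, 27.9 and 30.4 FPKM, 51.3, 49.3 and 49.1, and 166 to 178 in the same order (−0.76 ± 0.046). In both genes each siRNA group lay below the control, and the siMYEOV libraries lay lowest. Integrin beta 4 (ITGB4) differed by −0.96 ± 0.055 and integrin beta 1 (ITGB1) by −0.79 ± 0.085. Of 12 mesenchymal genes 4 were lower, including S100A4, a calcium-binding protein linked to motility, at 71.4, 73.8 and 78.9 FPKM against 291, 279 and 264 (−1.88 ± 0.055), the receptor kinase AXL (−0.93 ± 0.11) and TGFB1 (−1.02 ± 0.12), and 1 was higher, the membrane linker moesin (MSN, 0.97 ± 0.037).

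S100 genes showed the contrast within a family. S100A6, a calcium-binding protein of growing cells, read 383, 426 and 427 FPKM after siMYEOV, 111, 112 and 101 after siDDX60L and 443 to 480 in siControl (1.92 ± 0.063, adjusted p = 1.3e-05). S100A4, of the same cluster on chromosome 1, was opposite (−1.88). S100A6 was thus low only in the siDDX60L group of these 3 groups, and S100A4 lowest in the siMYEOV group, with siControl at 438 to 454 FPKM. Of 11 tested S100 genes 3 were higher and 2 lower, beside 12.5% and 9.75% of all genes.

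In the metabolic and stress lists the calls stand beside 12.5% higher and 9.75% lower of all genes. Of 36 hypoxia and glycolysis genes 10 were lower and 2 higher (median −0.19), with BNIP3L, a mitophagy receptor, at −1.44 ± 0.13, the enolase ENO2 at −1.003 ± 0.21 and the glucose transporter SLC2A3 at 1.04 ± 0.050. Of 26 p53 targets 7 were lower and 2 higher (median −0.14), including BTG2 (−1.08 ± 0.080), SFN, which encodes 14-3-3 sigma (−0.996 ± 0.086), and GADD45A (−0.90 ± 0.061). Of 24 YAP and TEAD targets 6 were lower and 1 higher (median −0.20), with the matricellular ligand CYR61 at −0.70 ± 0.038. Among 23 ER chaperone genes 4 were higher and 2 lower. HYOU1, an HSP70-like chaperone, read 79.6, 76.3 and 80.0 FPKM against 20.9, 21.0 and 16.7 (1.96 ± 0.090), whereas MANF, a secreted stress factor, read 7.87, 7.46 and 7.87 FPKM against 24.6, 25.4 and 23.6 (−1.55 ± 0.050).

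The counts of the remaining lists also stand beside 12.5% higher and 9.75% lower of all genes. Cholesterol synthesis had 3 higher and 2 lower of 23, and the mevalonate kinase MVK was higher (0.72 ± 0.10). Of 28 apoptosis regulators 3 were higher and 2 lower, with the initiator caspase CASP9 at 0.95 ± 0.059 and the death receptor TNFRSF10A at −0.82 ± 0.054. Of 23 immediate early genes 3 were higher and 3 lower, and JUND, an AP-1 subunit, was higher (1.88 ± 0.061). Of 26 ATF4 and amino acid stress genes 3 were higher and 2 lower, with PHGDH, the first enzyme of serine synthesis, at −0.92 ± 0.076. Of 44 nuclear oxidative phosphorylation genes 3 were higher and 2 lower, and of 42 cytosolic ribosomal protein genes 1 and 2. None of 13 mitochondrially encoded mRNAs was called by limma, 2 were higher and 1 lower at an unadjusted p below 0.05, and their median was −0.02. Of 17 genes of the IL6 axis 2 were higher and 2 lower.

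**Figure D3:**
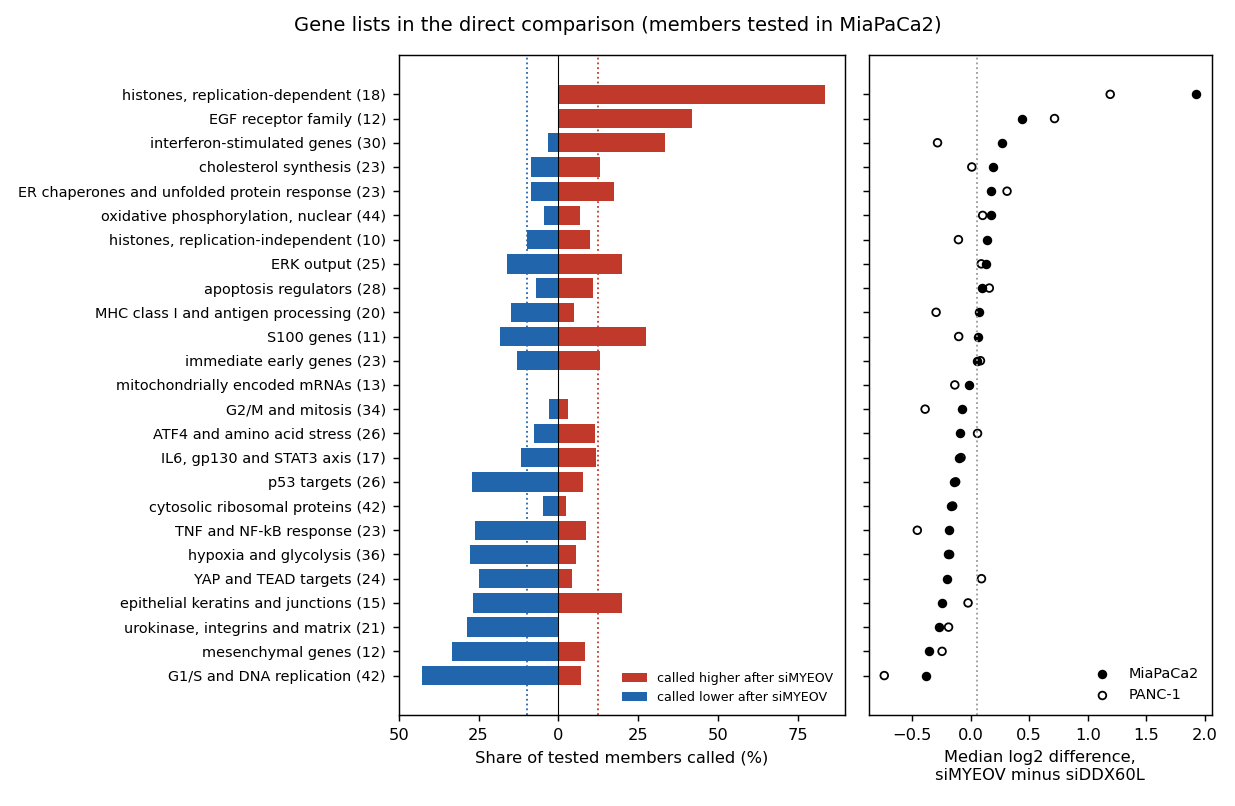
Left, the share of tested members of each list called higher (red) or lower (blue) after siMYEOV in MiaPaCa2, with the number tested in parentheses and dotted lines at the shares of all genes, 12.5% and 9.75%. Right, list medians of the log2 difference in MiaPaCa2 (filled) and, for members tested in both lines, in PANC-1 (open). Replication-dependent histones stand at 1.92 and G1/S genes at −0.38 in MiaPaCa2, and the dotted line is the MiaPaCa2 median of all genes, 0.05.

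The siControl libraries showed which siRNA group lay away from the control level. In a fit over the 9 libraries, siMYEOV differed from siControl in 3164 of 11875 genes (26.6%), 1930 (16.3%) higher and 1234 (10.4%) lower, and siDDX60L in 1908 (16.1%), 1034 (8.71%) higher and 874 (7.36%) lower. Under scaling by the median of ratios the siMYEOV split was 1363 to 1586, that is 46.2% higher in place of 61.0%, and the siDDX60L split was 834 to 1039, 44.5% in place of 54.2%. Both comparisons share the siControl libraries. Of the 1488 genes higher after siMYEOV in the direct comparison, 638 differed from siControl after siMYEOV only, 332 after siDDX60L only, 41 after both in opposite directions, 57 after both in the same direction and 420 after neither. Of the 1158 lower genes these numbers were 600, 175, 17, 54 and 312.

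Genes that parted in opposite directions from the control included LAMTOR5, a subunit of the Ragulator complex that anchors mTORC1 to lysosomes, at 59.5, 65.6 and 78.1 FPKM after siMYEOV, 10.7, 13.5 and 12.5 after siDDX60L and 47.7, 47.9 and 38.7 in siControl (direct 2.37 ± 0.12). ARF3, a small GTPase of the Golgi, read 55.9, 55.6 and 55.1 FPKM, 10.8, 10.6 and 11.7, and 35.6 to 40.3 in the same order (2.23 ± 0.048). MRPL24, a mitochondrial ribosomal protein, differed by 2.03 ± 0.046. In the other direction PTX3, a secreted pattern recognition protein, read 28.7, 31.5 and 30.1 FPKM after siMYEOV, 109, 108 and 108 after siDDX60L and 46.0 to 50.3 in siControl (−1.82 ± 0.044). Most of the distance of LAMTOR5, ARF3 and MRPL24 from siControl was on the siDDX60L side, at −1.79, −1.69 and −1.44 against 0.58, 0.54 and 0.59 after siMYEOV.

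Some direct differences came from the siDDX60L group alone by this measure. MRS2, the mitochondrial magnesium channel, read 5.01, 5.59 and 5.77 FPKM after siDDX60L, 29.2, 28.3 and 28.9 after siMYEOV and 26.4 to 28.4 in siControl (2.21 ± 0.060). CDC42EP3, a CDC42 effector, read 8.69, 8.04 and 8.01 FPKM after siDDX60L, 35.9, 34.3 and 32.3 after siMYEOV and 27.3 to 28.8 in siControl (1.93 ± 0.059). PRDX4, a peroxiredoxin of the ER, was instead raised in the siDDX60L group, at 134, 141 and 136 FPKM against 46.5, 46.3 and 44.7 after siMYEOV and 40.7 to 48.5 in siControl (−1.56 ± 0.038). AC093668.3, at 4.15, 8.19 and 9.70 FPKM after siMYEOV, was listed at 0, 0 and 0.478 after siDDX60L and at 0, 5.58 and 0 in siControl, so its call against siControl comes with overlapping libraries.

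Seed matches were counted in the annotated 3′ UTRs of 10889 tested genes, as a description with no test. The 1590 genes with at least 1 siMYEOV seed match had a median difference of −0.08, with 20.1% lower, beside 0.05 and 10.2% lower for all genes with a UTR. Genes without a match had a median of 0.07 with 8.48% lower, genes with 1 match −0.06 with 19.3% lower, and genes with 2 or more −0.14 with 23.2% lower. UTRs with a match were longer, with a median of 3345 bases against 1494 in all. The seed matches of the 4 siRNAs that the study designed but did not take further were counted in the same way, and their genes had medians of 0.02 to 0.09. A lower level after siDDX60L appears as a positive difference here, and the 205 genes with a match had a median of 0.14, with 22.9% higher beside 12.8% of all.

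**Figure D4:**
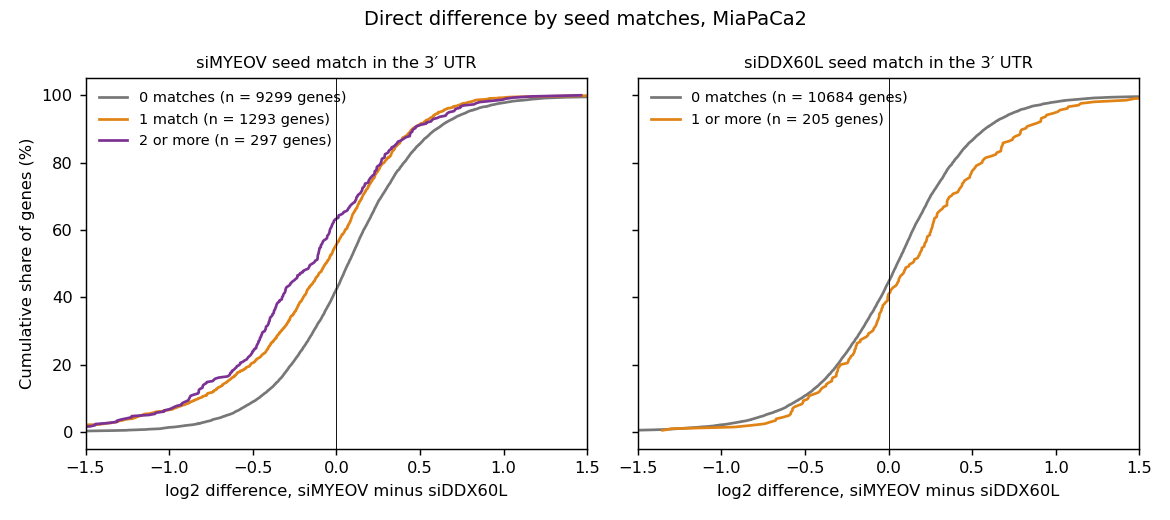
Cumulative share of genes (y axis, %) by log2 difference, siMYEOV minus siDDX60L (x axis), for genes with and without a seed match in the 3′ UTR. The curves of genes with 1 (n = 1293) and 2 or more (n = 297) siMYEOV matches lie left of the 9299 genes without, and the curve of the 205 genes with a siDDX60L match lies right of those without.

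The matches were dense among the largest falls. Of the 100 called genes lowest after siMYEOV with a UTR and an identifier, 58 held a siMYEOV seed match, beside 14.6% of all genes, and their median UTR was 1702 bases long. For MYEOV-si-2 and DDX60L-si-3, the unused siRNAs whose seed matches are about as common, 11 of 100 and 9 of 100 held a match beside 12.6% and 9.82% of all genes. Of the 100 genes highest after siMYEOV, 5 held a siDDX60L match beside 1.88% and 6 a siMYEOV match. This count of the extremes was chosen after the data were seen. The matched stretch is shown in capitals for genes among the largest falls, in the sense of each transcript, beside 11 bases upstream and 1 downstream, which take the place of the full siRNA site printed above.
HSPB1: tttctcaaataAAGTTCAa
GLO1: aagtacatttaAAGTTCAa
ZCRB1: atttatttgaaAAGTTCAt
AK5: aaaacattaaaAAGTTCAt
These lie at chr7:75933581-75933599 (plus strand), chr6:38644510-38644528 (minus), chr12:42706711-42706729 (minus) and chr1:78024391-78024409 (plus) of GRCh37, each in the 3′ UTR. AK5 parted from siControl on both sides, with means of 3.46 FPKM after siMYEOV, 16.8 after siDDX60L and 8.41 in siControl. The called genes with a siDDX60L match that lay lowest relative to siMYEOV were CDC42EP3 and PACSIN2, which bends membranes (1.64 ± 0.15). Next were DESI1, a deSUMOylating protease (1.47 ± 0.051), and TMEM127, an endosomal regulator of mTOR (1.42 ± 0.075). DESI1 had means of 23.7 FPKM after siMYEOV, 7.89 after siDDX60L and 12.9 in siControl, so it too parted on both sides.
CDC42EP3: gaagggctgagCGAGTCAc
PACSIN2: tctctcctttcCGAGTCAa
They lie at chr2:37872633-37872651 and chr22:43267056-43267074, both on the minus strand.

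Coding sequence was searched too, an addition made after the data were seen. Over the whole of the longest mRNA, genes with 0, 1, 2 and 3 or more siMYEOV matches had medians of 0.10, −0.05, −0.18 and −0.14, with 6.81%, 16.8%, 22.9% and 25.4% lower. The most matches were in AHNAK2, with 43, and AHNAK, with 27, the only tested genes with at least 10, and all of them lie in coding sequence. The commonest windows are shown with the match in capitals.
AHNAK2: ccaaagacagcAAGTTCAa
AHNAK: tgaaaatgcccAAGTTCAg
The AHNAK2 window occurs 20 times, first printed here at chr14:105419761-105419779 (minus strand), and the AHNAK window 12 times, here at chr11:62299232-62299250 (minus strand). KRT18, KRT8, MTPN, COX6A1, CXCL1 and PLAUR held no match in the mRNA, and neither did the 15 tested replication-dependent histone genes that could be searched. HIST1H3B, HIST2H2AA3 and HIST2H2AA4 were not searched. Of the 18 lower G1/S genes 11 held a match in the mRNA, among them CCND1, CDK6, MCM2 and RFC3, and of the 6 lower genes of the urokinase, integrin and matrix list 3 did, among them ITGAV and ITGB4. The share was 52.0% over all lower genes with a searched mRNA and 28.4% over all genes with one. Whether a match lowered any of these transcripts was not tested.

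PANC-1 libraries gave a separate measurement of the same siRNA contrast in a line with more MYEOV transcript. DDX60L parted less there, with means of 0.583 FPKM after siDDX60L, 1.08 after siMYEOV and 1.31 in siControl. Its direct difference in PANC-1 was not called (0.40 ± 0.13). MYEOV had means of 9.94 FPKM after siMYEOV, 14.8 after siDDX60L and 23.9 in siControl, so both siRNA groups lay below the control. There 12513 genes were tested, 1129 (9.02%) were higher and 1836 (14.7%) lower after siMYEOV. Of the 11084 genes tested in both lines, 568 were higher in both, a share of 40.8% among the higher calls of MiaPaCa2 and 53.9% among those of PANC-1, while 9.51% of these genes were called higher in PANC-1 and 12.6% in MiaPaCa2. Another 661 were lower in both, 61.4% and 44.3% of the lower calls, beside 13.5% called lower in PANC-1 and 9.71% in MiaPaCa2. Calls in opposite directions numbered 15, and for all 15 the difference between the lines was itself called.

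KRT18 was lower in PANC-1 as well, at 91.6, 95.3 and 89.3 FPKM after siMYEOV and 354, 327 and 327 after siDDX60L (−1.86 ± 0.055), and the difference between the lines was −2.09 ± 0.071 (adjusted p = 1.9e-07). HIST1H2BK read 128, 144 and 158 FPKM against 42.4, 43.9 and 40.1 (1.74 ± 0.084), a smaller rise than in MiaPaCa2 by 2.31 ± 0.11. CXCL1 differed by −1.23 ± 0.076 in PANC-1 and −1.25 in MiaPaCa2. AHNAK2 was lower in both lines, by 2.49 in MiaPaCa2 and 1.91 in PANC-1, and so were GOLM1, a Golgi membrane protein (−1.85 and −1.56), and B4GALT5, which makes lactosylceramide (−1.54 and −1.71). LAMTOR5 (2.37 and 2.05), GLTP, a glycolipid transfer protein (1.56 and 1.74), and FNDC3A (1.69 and 1.59) were higher in both.

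Replication-dependent histones were higher in 9 of 13 tested cases in PANC-1 and lower in 0, with a median of 1.19. G1/S genes were lower in 32 of 42 cases there (median −0.74), and EGF receptor family genes higher in 5 of 10 (0.72). Mitotic genes were lower in 10 of 34 cases in PANC-1 and higher in 1 (−0.39). The counts and PANC-1 medians in this paragraph cover genes tested in both lines. The counts stand beside 9.51% called higher and 13.5% called lower in PANC-1 among all 11084 such genes. Interferon-stimulated genes differed in sign between the lines by median, with 1 higher and 9 lower of 29 in PANC-1 (−0.28). So did YAP and TEAD targets, with 6 higher and 2 lower of 22 in PANC-1 (0.09). MHC class I and antigen processing genes had 0 higher and 7 lower of 19 in PANC-1 (−0.29). Their MiaPaCa2 median of 0.07 lay near the 0.05 of all genes. It was −0.002 without siDDX60L replicate 1 and −0.03 without siMYEOV replicate 2, so its sign depended on single libraries. Medians of some other lists also changed sign. The siMYEOV seed genes had a median of −0.15 in PANC-1 beside −0.01 for all genes with a UTR.

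The test of the difference between the lines called 1366 of 11084 genes (12.3%), 975 (8.8%) more positive and 391 (3.53%) more negative in MiaPaCa2, and 714 to 579 (55.2% in place of 71.4% positive) under scaling by the median of ratios. PTGES, the prostaglandin E synthase, read 34.3, 36.2 and 36.8 FPKM after siMYEOV and 11.2, 10.3 and 11.1 after siDDX60L in MiaPaCa2, and 0.827, 0.865 and 0.601 against 3.02, 2.36 and 1.90 in PANC-1. Its difference was thus 1.63 in the former and −0.95 in the latter, with a line difference of 2.58 ± 0.15 (adjusted p = 5.9e-06). CYR61 was opposite, at −0.70 in MiaPaCa2 and 0.52 in PANC-1. KRT8 was lower in MiaPaCa2 and read 515, 415 and 417 FPKM against 447, 483 and 466 in PANC-1 (−0.06, not called), with a line difference of −0.98 ± 0.12. CCND1 differed by −0.44 in PANC-1, short of the threshold of 0.5, and the lines differed by −1.05 ± 0.061. EREG, an EGF receptor ligand, differed by 1.88 ± 0.074 in PANC-1 and by 0.50 in MiaPaCa2, a line difference of −1.38 ± 0.078. Its MiaPaCa2 call sits at the threshold and is lost without siMYEOV replicate 2 (0.47) or without siDDX60L replicate 3 (0.49).

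**Figure D5:**
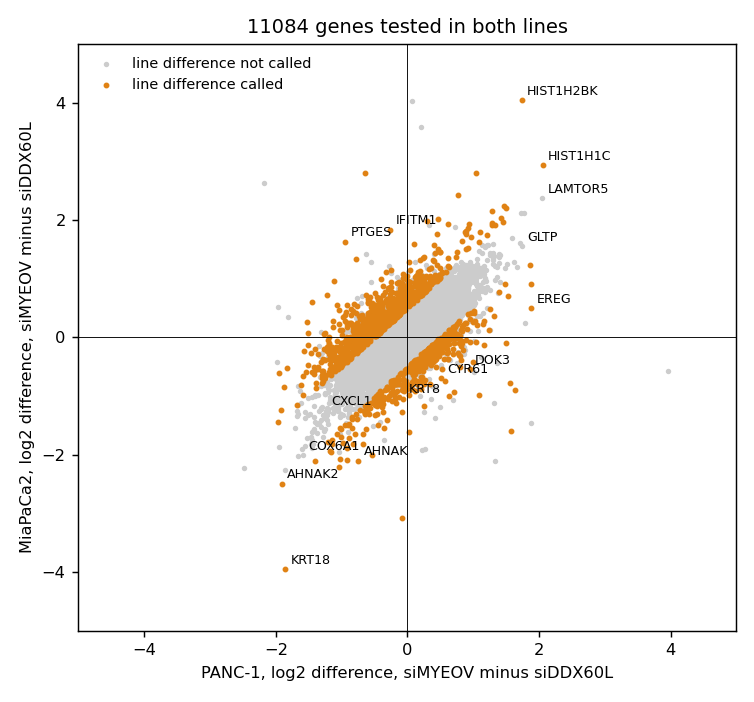
Each point is one of 11084 genes, with the log2 difference, siMYEOV minus siDDX60L, in PANC-1 on the x axis and in MiaPaCa2 on the y axis, and orange marks the 1366 genes whose difference between the lines was called. KRT18 (−3.95 and −1.86) and HIST1H2BK (4.04 and 1.74) lie far out in both lines, and PTGES (1.63 and −0.95) lies in opposite directions.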

How the data were processed

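RNA-seq values of the 6 MiaPaCa2 siMYEOV and siDDX60L libraries were compared, beside siControl and PANC-1. The authors deposited FPKM, a column per library, and TopHat2 2.0.12 and GRCh37 are named in the submitters' processing notes. How FPKM was computed, and how strand and reads with several matches were handled, is not given in the sources used here. FPKM is relative to the size of each library, so large changes of abundant genes can shift the values of all others. Depth per library is unknown beyond the relative estimate, so single values carry no counting interval. All per-library columns were mapped to a sample by name.

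Genes whose mean over a line's 15 libraries reached 1 FPKM were fitted as log2(FPKM + 1) with limma 3.58.1 in R 4.3.3 (empirical Bayes with trend, Benjamini-Hochberg adjustment over all genes tested, two-sided). Differences on this scale understate changes of genes near 1 FPKM. In simulated data, 81 of 100 genes changed by 0.75 and 83 of 100 changed by 1 (log2) were recovered in the MiaPaCa2 comparison. The changed genes were far fewer than those called here and left out the lowest levels. These rates therefore do not carry over to genes near 1 FPKM or to the full set of calls. The line difference was an interaction over 12 libraries. Of 24895 entries, 19974 carried Ensembl identifiers, and 841 of the 11875 tested were models without one, 118 of them called. They were not named. Some members of the lists are counted but not reported here by name. UTR and mRNA sequences and coordinates came from a GRCh37 annotation, and promoters from RefSeq.

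The members and the 25 gene lists were chosen with earlier results of these data known. Named genes were the targets, CXCL1, CXCL2, CXCL3 and CXCL8, the 12 largest differences in each direction with non-overlapping groups, up to 6 called members and the counter-moving members of each list, and the leading genes by agreement with PANC-1, by siControl class and by seed match. Others are marked as chosen after their values were seen. Alternatives were a pseudocount of 0.1, no filter and a filter of 5 FPKM, scaling by the median of ratios, a fit over all 15 libraries, a replicate block and leaving out each replicate.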

Additional observations from a re-analysis of the deposited data

Results flagged for a closer look

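Of the genes named above, 54 had a direct difference that itself differed between MiaPaCa2 and PANC-1 by the interaction test in limma, with 28 more positive and 26 more negative in MiaPaCa2. Values are the log2 difference, siMYEOV minus siDDX60L, in MiaPaCa2 minus that in PANC-1, so a positive value can mean a larger rise or a smaller fall. Groups of 3 libraries were too small to look for single outlying libraries. Under scaling by the median of ratios the split of line differences over all genes shifted, as given above, so values near 0.5 depend on the scaling.

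Among the histones HIST1H2BK stood at 2.31, HIST1H2AC at 1.76, HIST1H2BD at 1.64 and HIST1H1C and HIST1H2BJ at 0.88 each, all with the larger rise in MiaPaCa2, while the line differences of HIST2H2AA3 and HIST2H2AA4 (0.35 and 0.39) were not called. Interferon genes gave IFITM1 2.09, UBE2L6 1.05, OASL 0.74, STAT2 0.50 and TRIM25 −0.72. Antigen loading and inflammatory genes gave TAPBP 0.61, HLA-B 0.52, NFKB1 0.51, CXCL8 0.88 and PTX3 −0.98.

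Keratins and the cytoskeleton gave KRT18 −2.09, KRT8 −0.98, KRT19 0.53, AHNAK −1.36, AHNAK2 −0.58 and MTPN −1.17. Adhesion and invasion genes gave PLAU −0.83, ITGB1 −0.62, ITGAV 0.53, AXL −0.71, TGFB1 −0.65 and CYR61 −1.21. Cell cycle and growth genes gave CCND1 −1.05, MCM6 0.74, TYMS 0.69, GADD45A −0.82, SFN −0.72, EREG −1.38, DUSP7 −0.999 and FOSL1 −1.12.

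Stress, folding and death genes gave HSPB1 −1.04, GLO1 −0.80, MANF −0.53, HYOU1 0.51, PRDX4 −0.55 and CASP9 0.72. Traffic, membrane and mitochondrial genes gave RAB31 −1.17, AP3S1 −0.76, ARF3 0.76, PACSIN2 0.81, CDC42EP3 0.99, MRS2 0.71, MRPL24 0.61 and SCRN1 −0.70. The rest were S100A6 at 0.58, AK5 at −1.46, PTGES at 2.58, the target DDX60L at 1.17, and AC093668.3 at 3.45, whose values vary widely between libraries.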

How the results depend on the processing

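Over 7 counts of calls and 103 comparisons with alternatives, 101 counts stayed within 1.5 times. The others came with a filter of 5 FPKM, under which fewer genes are tested, and were 1164 genes lower in PANC-1 (8969 tested) and 830 with a line difference (7699 tested). With the replicate number as a replicate block the direct MiaPaCa2 comparison called 1475 genes higher and 1160 lower, of which 2595 were shared with the fit without it. Same-numbered libraries correlated in their deviations by 0.03, 0.05 and 0.001, which gave no sign of pairing by number. The labels do not give a pairing, and 3 libraries a group are too few to exclude one. Leaving out 1 library at a time gave 1442 to 1484 higher and 1130 to 1165 lower calls in MiaPaCa2, 1105 to 1132 and 1796 to 1844 in PANC-1, and 1275 to 1361 line differences. Scaling by the median of ratios changed the direct split to 1202 higher and 1361 lower (46.9% in place of 56.2% higher) and moved the median of all genes against siControl after siMYEOV from 0.11 to 0.002. Of the 170 genes chosen by the naming rule, 150 kept their side of the threshold throughout and 20 lost the call in at least 1 of the settings, in 60 of 2184 comparisons. None changed sign as a call. List medians moved by more than the replicate spread in 28 of 325 comparisons, 9 of them under the median of ratios. The labels give 3 libraries a group and 1 siRNA a target. Read depth is unknown, which limits what can be said of genes near the filter.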

Other observations

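TOMM6, a subunit of the mitochondrial import pore chosen here after its values were seen, read 149, 2.10 and 152 FPKM after siMYEOV, 1.80, 1.53 and 1.34 after siDDX60L and 1.60, 108 and 110 in siControl. Its direct log2 difference of 4.02 ± 1.5 was near that of HIST1H2BK but was not called (adjusted p = 0.062, limma).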
